A study of Mus musculus with 36 samples.

Results

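The TRIM (tripartite motif) family was taken as all protein-coding mouse genes whose GENCODE M21 symbol is Trim followed by a digit, a rule that uses no measured value. It has 68 members among the 54232 gene identifiers in the count files. All 68 members were in the files, 41 passed the filter on low counts and were tested, and 27 did not pass it. The cells were mouse macrophages grown in vitro from bone marrow with the growth factor M-CSF. Libraries were labelled WT, from the strain that the series text spells C65BL6, or NOS1 KO, a knockout of the neuronal nitric oxide synthase gene Nos1. Each genotype was left untreated (control) or given LPS, the bacterial lipopolysaccharide, at 100 ng/mL for 2 h or 8 h. That makes 6 groups of 6 libraries and 36 libraries in all. In each group 1 library, here numbered 6, carries BMDM (bone-marrow-derived macrophage) in its genotype label and was counted in the same group. The labels do not say which part of Nos1 was deleted, which animals or cultures the libraries came from, or how libraries pair, so a p-value here measures the spread between libraries, which may be technical.

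TRIM proteins share a RING domain with ubiquitin ligase activity in most members, B-box domains and a coiled coil through which they pair. The domain at the far end differs between branches of the family and sets what each protein binds. In macrophages, LPS signals through the receptor TLR4 to NF-kB and, through TRIF and IRF3, to interferon beta, which then acts back on the cells. Many TRIM genes are known as interferon-stimulated genes, and their products restrict viruses or tune the sensors and kinases of innate immunity.

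Depth and identity were checked first. Library totals ran from 8953489 to 18482551 assigned reads, and all 10 macrophage markers were detected in all 36 libraries. Nos1 went against the label: it stood at 0 to 0.855 CPM (read counts scaled to library size by the TMM method) in the 18 WT-labelled libraries and at 1.01 to 5.07 CPM in the 18 labelled NOS1 KO. Every direction between genotypes below therefore rests on the label alone. The libraries also fell into sets that no label names. With group means removed from log2 CPM, the leading principal component held 34.6% of the variance and put libraries 1, 2 and 6 of every group in set A and libraries 3, 4 and 5 of every group in set B. The numbers are not in the labels, which do not say whether libraries of the same number share an origin. The same 36 libraries fell into the same sets when the TRIM members and the interferon genes were left out. Markers of skeletal muscle summed to over 100 CPM in 4 libraries, all WT-labelled: 8 h library 5 (4930 CPM), 2 h library 6 (587 CPM), 2 h library 5 (227 CPM) and 8 h library 6 (138 CPM). The other 32 reached at most 74.8 CPM. In bulk RNA, fewer cells of a kind and less RNA per cell cannot be told apart.

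The TRIM response to LPS was early and mixed at 2 h, then split at 8 h into large rises of a few branches and falls of others. At 2 h in WT-labelled cells, 9 members rose and 17 fell, 26 of 41 called by edgeR's quasi-likelihood test with Benjamini-Hochberg adjusted p below 0.05, where 37.9% of all 12957 genes tested were called (20.3% higher, 17.6% lower). At 8 h, 17 rose and 17 fell, 34 of 41, where 71.2% of all genes were called (34.2% higher, 37% lower). From 2 h to 8 h, 21 rose and 9 fell, where 62.8% of all genes were called (30% higher, 32.7% lower). The median log2 fold change of the 41 members was -0.18 at 2 h and 0.24 at 8 h, beside -0.02 and -0.06 over all genes tested. A count of 34 of 41 at 8 h is read against that background, in which most genes were called. The branches of the family moved in different directions.

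**Figure D1:**
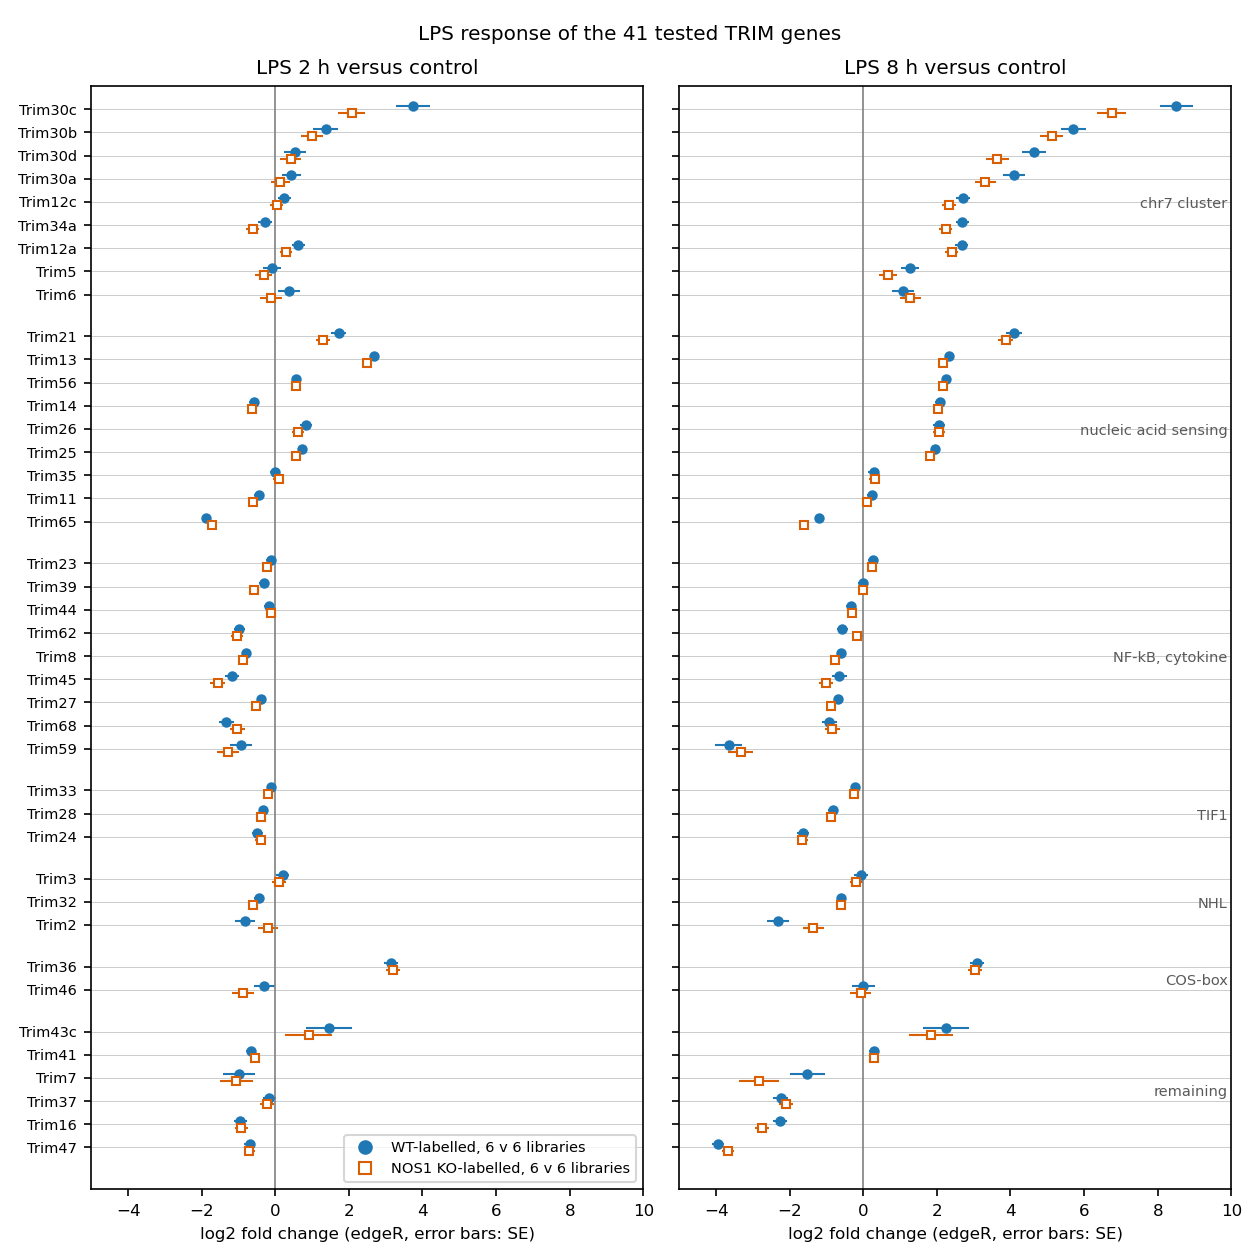
Log2 fold change after LPS 2 h (left) and 8 h (right) against untreated controls for the 41 tested TRIM genes, grouped by branch; filled circles are WT-labelled and open squares NOS1 KO-labelled libraries, 6 against 6, with standard errors. At 8 h the chromosome 7 cluster lies right of 0, up to 8.50 for Trim30c, and Trim47 lies lowest at -3.95.

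The counts in NOS1 KO-labelled cells were close to these. At 2 h, 8 rose and 19 fell (27 of 41), with 35.2% of all genes called (18.9% higher, 16.4% lower). At 8 h, 17 rose and 16 fell (33 of 41), with 72.1% of all genes called (34.9% higher, 37.1% lower). From 2 h to 8 h, 21 rose and 10 fell (31 of 41), with 65.2% of all genes called (31.5% higher, 33.7% lower). At 8 h, all 33 members called in NOS1 KO-labelled cells were called in the same direction in WT-labelled cells, where 34 were called. The same agreement was not counted over all genes, so it is not shown to be particular to the members. Only Trim62, which ubiquitinates the adaptor CARD9, was called in WT-labelled cells alone (log2 fold change -0.57, against -0.16), and that difference did not pass its own test. These splits depend on the scaling between libraries. TMM scaling factors ran from 1.28 to 1.34 in WT-labelled controls and from 0.704 to 0.805 at 8 h. When libraries were scaled by their totals only, the 8 h median over all genes in WT-labelled cells went from -0.06 to -0.83, and the split of members from 17 higher and 17 lower to 15 and 24. At 2 h the split moved from 9 and 17 to 8 and 23, and in NOS1 KO-labelled cells from 8 and 19 to 7 and 24. For 8 h against 2 h in WT-labelled cells it moved from 21 and 9 to 15 and 15. In NOS1 KO-labelled cells it moved from 17 and 16 to 14 and 24 at 8 h, and from 21 and 10 to 15 and 17 for 8 h against 2 h.

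The largest rises belonged to the cluster of Trim5-like restriction factors on chromosome 7. Its 10 members lie within 104218793 to 104507849 of chromosome 7 (mm10), and 9 were tested. The cluster holds the mouse relatives of primate TRIM5alpha, which binds retroviral capsids, together with Trim6, Trim34a, Trim34b and the rodent Trim30 group. All 9 rose at 8 h in WT-labelled cells (median log2 fold change 2.72, range 1.07 to 8.50), beside 34.2% of all genes, and all 9 rose at 8 h in NOS1 KO-labelled cells (median 2.41). Only 3 of the 9 had risen at 2 h in WT-labelled cells, Trim30c, Trim30b and Trim12a, and all 9 rose from 2 h to 8 h.

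Because these genes moved together, their promoter windows were read from RefSeq (GRCm38.p6, the same assembly as mm10), which has at least 1 window of 300 bases, 250 before the start and 50 after it, for 53 of the 68 members and for 31 of the 41 tested. The windows were searched on both strands for the core of the interferon-stimulated response element (ISRE), GAAANNGAAA. The sequences below were chosen because they hold that core in a member that changed at 8 h, and they are printed on the gene's own strand with the match in capitals. Where the match is on the other strand, the capitals show its reverse complement.
Trim30a, chr7:104465194-104465313, minus strand: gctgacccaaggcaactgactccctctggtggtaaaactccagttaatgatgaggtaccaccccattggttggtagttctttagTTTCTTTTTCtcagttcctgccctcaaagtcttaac
Trim30d, chr7:104507850-104507969, minus strand: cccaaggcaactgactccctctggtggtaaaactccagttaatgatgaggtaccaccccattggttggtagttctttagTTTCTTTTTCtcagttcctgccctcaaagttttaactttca
Trim5, chr7:104288107-104288226, minus strand: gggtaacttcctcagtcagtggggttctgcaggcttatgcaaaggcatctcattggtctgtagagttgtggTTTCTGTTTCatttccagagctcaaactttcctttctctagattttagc
Trim12c, chr7:104353350-104353469, minus strand: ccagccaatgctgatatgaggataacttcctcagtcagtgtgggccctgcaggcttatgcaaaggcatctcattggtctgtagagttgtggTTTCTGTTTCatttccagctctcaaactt
Trim12a, chr7:104315466-104315495, minus strand: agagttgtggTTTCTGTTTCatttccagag
Trim34a, chr7:104244457-104244486, plus strand: tggtttggagTTTCAGTTTCttttctctgc
Trim21, chr7:102565447-102565476, minus strand: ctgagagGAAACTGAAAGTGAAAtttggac
Trim26, chr17:36836954-36837033, plus strand: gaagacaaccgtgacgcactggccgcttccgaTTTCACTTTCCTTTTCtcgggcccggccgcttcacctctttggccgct
Trim2, chr3:84212791-84212820, minus strand: tcagctttggTTTCCTTTTCtctaagacag

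Trim30a and Trim30d carried the same letters, TTTCTTTTTC, in a shared stretch, and Trim5, Trim12a and Trim12c carried TTTCTGTTTC. In Trim21 and in Trim26, 2 matches overlapped. The core was in a window of 8 of the 14 members with a window that rose at 8 h in WT-labelled cells (57.1%), in 1 of 13 that fell (Trim2), and in none of the 4 that were tested without a call or the 22 that were not tested. Among the cluster's 10 members 6 held it. Over all 27025 genes with a window, 3.99% held it, and of all 32851 windows of this length, 3.44%. Paralogs share their sequence by descent, so these members are not independent examples. A match is a stretch of letters, not a shown binding site.

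The STAT-type GAS motif, TTCNNNGAA, was in a window of 6 of the 53 members (11.3%, against 9.55% of all genes with a window), and the NF-kB consensus in 1 of 53, Trim43a (1.89%, against 5.14%). Trim30c, the member with the largest rise, held no ISRE core in its window but a GAS match, shown here because it differs from its neighbours in this.
Trim30c, chr7:104400779-104400898, minus strand: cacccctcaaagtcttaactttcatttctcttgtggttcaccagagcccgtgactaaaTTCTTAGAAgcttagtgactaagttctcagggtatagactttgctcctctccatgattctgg
Trim30b and Trim6 held neither the ISRE core nor the GAS motif in their windows. The only Trim30b window, 104358597 to 104358896, lies inside the gene as GENCODE M21 annotates it, 104355382 to 104369884 on the minus strand. The stretch before that annotated start was not searched.

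**Figure D2:**
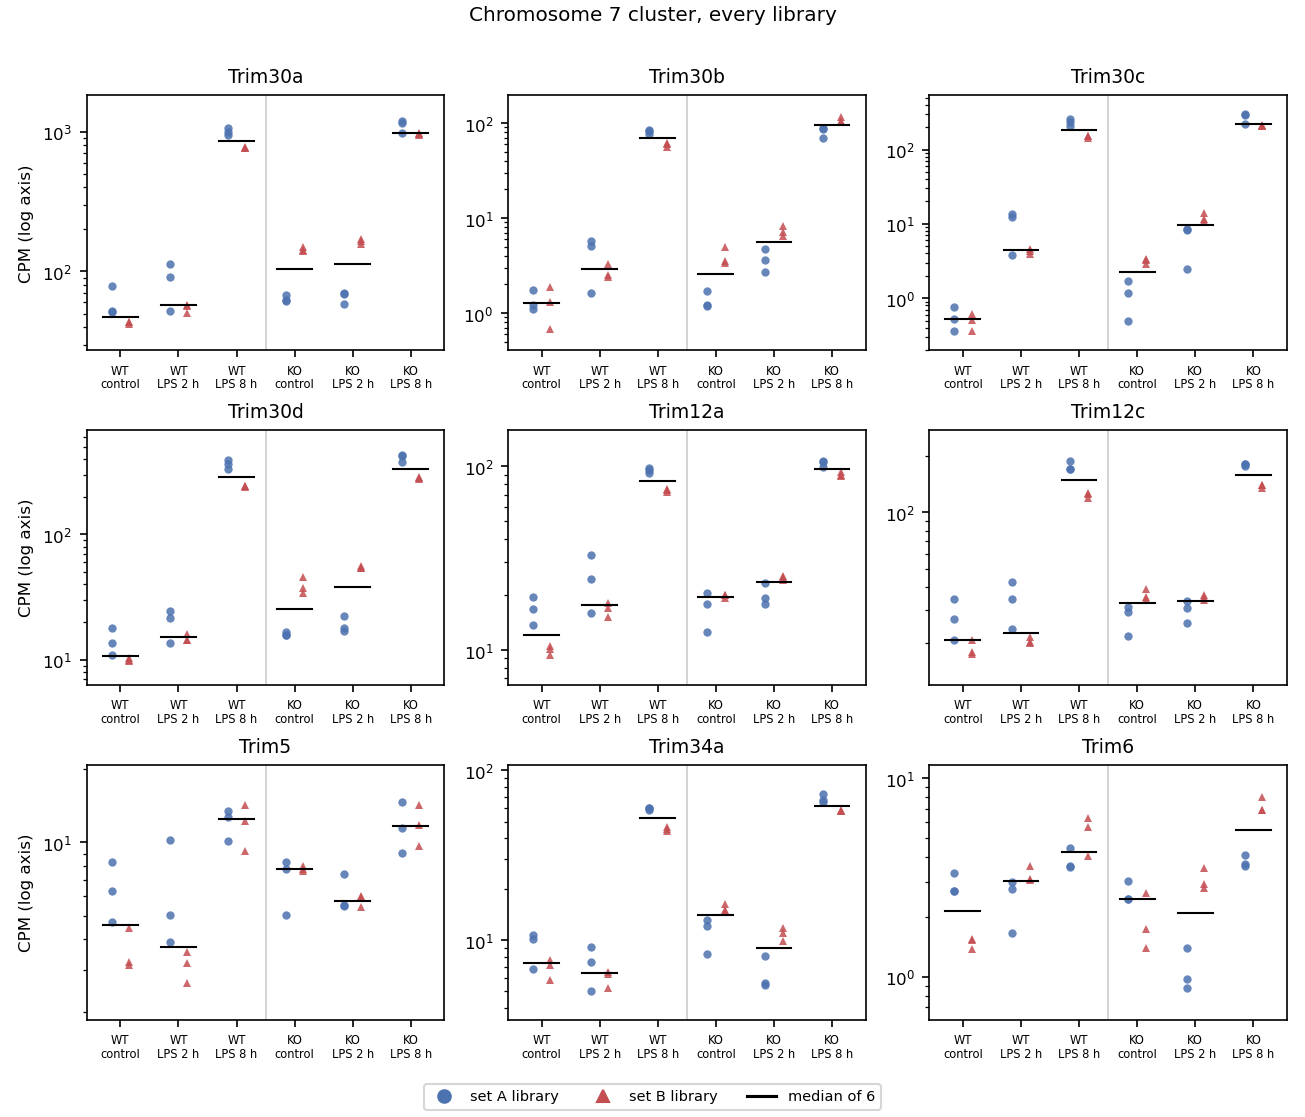
CPM of the 9 tested genes of the chromosome 7 cluster in every library (log axes), by group; circles are set A, triangles set B, and bars the median of 6 libraries. Trim30a stood at 41.8 to 78.2 CPM in WT-labelled controls and at 761 to 1070 CPM after 8 h, and the triangles of NOS1 KO-labelled controls lie above the circles for Trim30a and Trim30d.

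Trim30a, known as a brake on TLR signalling that lowers TAB2 and TAB3, stood at 41.8 to 78.2 CPM (median 47.6) in WT-labelled controls, at 50.1 to 113 (median 57.1) at 2 h and at 761 to 1070 (median 862) at 8 h. The 8 h libraries all lay above every control and 2 h library, whereas control and 2 h libraries overlapped. Its log2 fold change was 0.44 at 2 h (SE 0.27, adjusted p = 0.202, edgeR) and 4.10 at 8 h (SE 0.30, adjusted p = 3.11e-14, edgeR). Trim30d followed the same course, at 9.85 to 18.1 CPM (median 10.7) in controls, 13.6 to 24.6 (median 15.3) at 2 h and 240 or more (median 287) at 8 h, a log2 rise of 4.64 at 8 h (SE 0.33, adjusted p = 1.79e-14, edgeR). For both, most of the rise came after 2 h.

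Trim30c and Trim30b started near the detection limit. Trim30c stood at 0.36 to 0.764 CPM (median 0.518) in WT-labelled controls, 45 reads in all 6 libraries together, and reached 3.8 to 13.4 (median 4.44) at 2 h and 141 to 258 (median 180) at 8 h. The groups did not overlap at either step, and the rises were 3.75 on the log2 scale at 2 h (SE 0.46, adjusted p = 2.68e-08, edgeR) and 8.50 at 8 h (SE 0.45, adjusted p = 9.25e-18, edgeR). With so few control reads, the size of this fold change is less certain than its direction. Trim30b stood at 0.679 to 1.89 CPM (median 1.26) in controls, 1.61 to 5.76 (median 2.9) at 2 h and 56 to 84 (median 69.5) at 8 h, a log2 rise of 5.71 at 8 h (SE 0.33, adjusted p = 8.43e-17, edgeR).

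The Trim5-like genes rose less. Trim12c stood at 17.3 to 34.2 CPM (median 20.7) in WT-labelled controls, 20 to 42.5 (median 22.6) at 2 h and 120 to 189 (median 149) at 8 h, and Trim12a at 9.43 to 19.4 (median 12), 15.2 to 32.9 (median 17.5) and 72.6 to 97.8 (median 83.5). Their 8 h libraries all lay above their controls, with log2 rises of 2.72 for Trim12c and 2.67 for Trim12a (SE 0.186 and 0.175, adjusted p = 5.41e-15 and 1.71e-15, edgeR). Trim5 itself was low, at 3.12 to 8.27 CPM (median 4.58) in controls and 9.24 to 14.3 (median 12.5) at 8 h, a log2 rise of 1.26 in WT-labelled and 0.67 in NOS1 KO-labelled cells (adjusted p = 1.81e-05 and 0.0108, edgeR). With library totals alone the value in NOS1 KO-labelled cells turned to -0.15. These transcripts are close copies: the longest of Trim5 and Trim12c match at 94.6% over 3710 bases, and those of Trim5 and Trim12a at 97% over 953 bases, so the split of reads among them is uncertain.

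Trim34a was the only cluster member called lower at 2 h before it rose, and only in NOS1 KO-labelled cells. The median of Trim5 also dipped at 2 h without a call, from 4.58 to 3.71 CPM in WT-labelled and from 7.77 to 5.75 in NOS1 KO-labelled cells. Trim34a stood at 5.86 to 10.7 CPM (median 7.4) in WT-labelled controls, 5.03 to 9.18 (median 6.43) at 2 h and 43.7 to 60.4 (median 52.4) at 8 h. In NOS1 KO-labelled cells the values were 8.29 to 16.4 (median 14), 5.45 to 11.8 (median 9.03) and 57.5 to 72.5 (median 61.7). The fall at 2 h was called in NOS1 KO-labelled cells (log2 fold change -0.62, SE 0.18, adjusted p = 0.00618, edgeR), with overlapping groups, but not in WT-labelled cells (-0.28, adjusted p = 0.242, edgeR). At 8 h both rose, by 2.70 and 2.24 on the log2 scale (adjusted p = 4.63e-15 and 2.6e-13, edgeR). Trim34b, its near copy at 98.7% over 1827 bases, gave only 125 reads in all 36 libraries and was not tested. Trim6, which builds free ubiquitin chains that activate the kinase IKK epsilon, stood at 1.38 to 3.31 CPM (median 2.13) in WT-labelled controls and 3.56 to 6.29 (median 4.26) at 8 h, a log2 rise of 1.07 (SE 0.29, adjusted p = 0.00156, edgeR). That rise was 1.84 in set B and 0.43 in set A (difference 1.40, adjusted p = 0.00213, edgeR).

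Of 9 tested members known to regulate nucleic acid sensing and interferon signalling, 5 rose and 3 fell at 2 h in WT-labelled cells, beside 20.3% and 17.6% of all genes. At 8 h 6 rose and 1 fell, beside 34.2% and 37% of all genes. The counts were the same in NOS1 KO-labelled cells. Trim21, a cytosolic receptor for antibody-coated viruses, stood at 16.1 to 23.2 CPM (median 18.9) in WT-labelled controls, 46.1 to 79 (median 63.4) at 2 h and 242 to 405 (median 324) at 8 h. The 3 groups did not overlap, and Trim21 rose by 1.72 at 2 h (SE 0.20, adjusted p = 6.35e-09, edgeR) and 4.09 at 8 h (SE 0.21, adjusted p = 4.25e-18, edgeR) on the log2 scale. Trim25, which ubiquitinates the RNA sensor RIG-I, was already abundant at 152 to 245 CPM (median 189) and rose to 269 to 400 (median 291) at 2 h and 679 to 826 (median 727) at 8 h, by 1.96 on the log2 scale at 8 h (adjusted p = 3.42e-17, edgeR). Trim56, linked to STING signalling, and Trim26, linked to the turnover of IRF3, rose by 2.25 and 2.06 at 8 h on the log2 scale (adjusted p = 2.79e-18 and 5.81e-13, edgeR).

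Trim13 and Trim14 ran against each other in time. Trim13, a ligase anchored in the endoplasmic reticulum that restrains the RNA sensor MDA5, stood at 5.56 to 7.9 CPM (median 6.61) in WT-labelled controls, 35.9 to 58.9 (median 39.7) at 2 h and 25.8 to 38.4 (median 36) at 8 h. All LPS libraries lay above all controls, and its rise was larger at 2 h than at 8 h: 2.69 on the log2 scale (SE 0.12, adjusted p = 2.9e-19, edgeR), against 2.34 at 8 h. The small fall from 2 h to 8 h was called (-0.35, adjusted p = 0.0073, edgeR), but was -0.01 in set B alone. Its transcript matches Gm9359 at 95.9% over 1230 bases. Trim14, an adaptor without a RING domain that acts with MAVS, stood at 12.1 to 20.4 CPM (median 15.8) in controls, 8.64 to 13.5 (median 11.1) at 2 h and 54.4 to 90 (median 69.8) at 8 h. It fell at 2 h (log2 fold change -0.58, SE 0.14, adjusted p = 0.000661, edgeR), with control and 2 h libraries overlapping, and rose at 8 h (2.10, SE 0.14, adjusted p = 9.89e-16, edgeR) with no overlap. The same order held in NOS1 KO-labelled cells, at -0.62 and 2.04. Trim14 shares 1650 exon bases with other genes, among them Nans on the opposite strand, and the strand setting of the counting is not given in the sources used here.

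Trim65, which ubiquitinates MDA5, was the member of this branch that fell at both times. It stood at 14.3 to 18.7 CPM (median 15.8) in WT-labelled controls, 3.63 to 4.87 (median 4.48) at 2 h and 5.56 to 8.3 (median 7.08) at 8 h, with no overlap among the 3 groups. The log2 fold change was -1.89 at 2 h (SE 0.10, adjusted p = 3.11e-17, edgeR) and -1.19 at 8 h (SE 0.10, adjusted p = 1.07e-12, edgeR). In NOS1 KO-labelled cells Trim65 was at 4.71 to 5.15 CPM at 2 h and 4.92 to 5.53 at 8 h, so the partial return seen in WT-labelled cells (0.70 from 2 h to 8 h, adjusted p = 4.12e-07, edgeR) was not called there (0.10, adjusted p = 0.429, edgeR). The difference between the genotypes in the 8 h response against control was -0.43 and did not pass (adjusted p = 0.873, edgeR). Whether the genotypes differed in the change from 2 h to 8 h was not tested. Of the remaining members of the branch, Trim11 fell at 2 h, from 15.1 to 28.2 CPM (median 25) to 15.2 to 21.8 (median 16.5), with overlapping groups (log2 fold change -0.45, SE 0.12, adjusted p = 0.0039, edgeR). Trim11 and Trim35 were not called at 8 h (log2 fold change 0.24 and 0.28), and with library totals alone both turned to -0.54 and -0.48.

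None of the members listed here as regulators of NF-kB and cytokine signalling was called higher than its controls. Of 9 tested, 7 fell at 2 h and 7 at 8 h in WT-labelled cells, beside 17.6% and 37% of all genes. The medians were -0.79 and -0.61, and the highest value at 8 h was 0.265, not called. The list does not hold every such member. Trim30a, named above as a brake on TLR signalling, was listed with the chromosome 7 cluster and rose at 8 h. Trim44, among those lower at 8 h, overlapped its controls in set A, at 66 to 80.7 CPM in controls and 68.5 to 73.4 at 8 h. In set B it stood at 68.4 to 69.1 CPM in controls and 41.3 to 45.8 at 8 h. From 2 h to 8 h 4 of the 9 rose and 2 fell, beside 30% and 32.7% of all genes. Trim8, which promotes NF-kB activation through the kinase TAK1, stood at 81.4 to 114 CPM (median 91.8) in WT-labelled controls, 45.6 to 62.6 (median 56.9) at 2 h and 56.7 to 67.9 (median 62.7) at 8 h. Every LPS library lay below every control, with log2 fold changes of -0.79 at 2 h and -0.61 at 8 h (SE 0.08 for both, adjusted p = 7.02e-10 and 4.35e-08, edgeR). Trim68 and Trim45 fell most at 2 h, by 1.33 and 1.17 on the log2 scale (adjusted p = 2.17e-06 and 8.09e-06, edgeR). Trim68 went from 4.02 to 8.57 CPM (median 6.2) in controls to 1.66 to 3.42 (median 2.46) at 2 h, and Trim45 from 2.48 to 4.28 (median 3.13) to 0.854 to 2.16 (median 1.37), both without overlap. At 8 h both overlapped their controls, at log2 fold changes of -0.92 and -0.65. Trim27, a repressor of NF-kB signalling, fell less, by 0.38 at 2 h and 0.68 at 8 h on the log2 scale.

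Trim59, placed in this branch for its effect on NF-kB signalling and also linked to cell proliferation, had one of the largest falls. It stood at 12.6 to 37.9 CPM (median 24.7) in WT-labelled controls, 5.89 to 18.3 (median 14.3) at 2 h and 0.923 to 3.49 (median 1.81) at 8 h. The 8 h libraries all lay below the others, and Trim59 fell by 3.66 on the log2 scale (SE 0.36, adjusted p = 6.52e-11, edgeR) and by 3.34 in NOS1 KO-labelled cells. Over the 36 libraries its log2 CPM was most like that of the cell cycle genes Ccnf, Esco2 and Gmnn (Pearson r = 0.981, 0.976 and 0.975). These r values are descriptions: the libraries share treatment groups and sets. Its transcript matches Gm15381 at 94.1%.

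**Figure D3:**
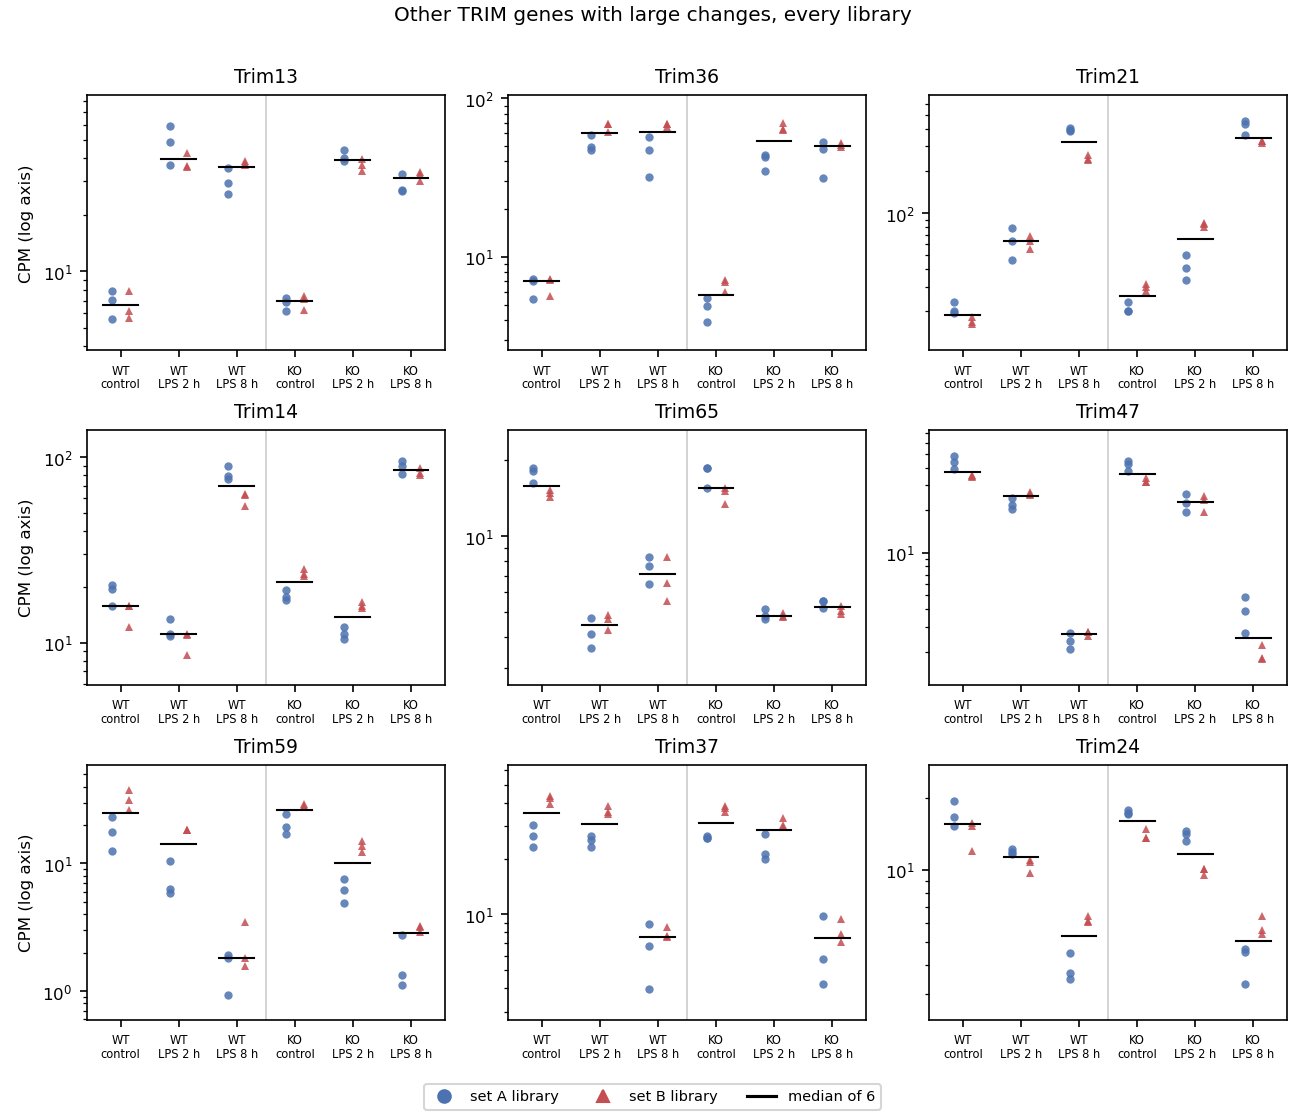
CPM of 9 further TRIM genes in every library (log axes), by group; circles are set A, triangles set B, and bars the median of 6 libraries. Trim13 and Trim36 were already high at 2 h, at medians of 39.7 and 60.1 CPM in WT-labelled cells, Trim14 dipped at 2 h to a median of 11.1 CPM, and Trim47, Trim59, Trim37 and Trim24 were lowest at 8 h.

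The nuclear, chromatin-binding TIF1 group fell at 8 h in all 3 members tested, where 37% of all genes were called lower. Trim24 stood at 12 to 19.4 CPM (median 15.5) in WT-labelled controls, 9.67 to 12.2 (median 11.3) at 2 h and 3.47 to 6.39 (median 5.26) at 8 h. Its 8 h libraries did not overlap the controls (log2 fold change -1.63, SE 0.15, adjusted p = 1.69e-11, edgeR). Its smaller fall at 2 h in NOS1 KO-labelled cells (-0.40, adjusted p = 0.0277, edgeR) was no longer called without any 1 of 6 libraries: 1, 2 and 6 of the controls and 3, 4 and 5 of the 2 h group, at -0.34 to -0.38. Trim28, the corepressor of KRAB zinc finger proteins that silences endogenous retroviruses, went from 103 to 134 CPM (median 122) to 58.9 to 85.9 (median 63.3) at 8 h, a fall of 0.82 on the log2 scale (adjusted p = 6.61e-07, edgeR). Trim33, known to shut down Ifnb1 late in macrophage activation, fell by 0.22 on the log2 scale (adjusted p = 0.0159, edgeR). It was no longer called without the 4 libraries with muscle markers over 100 CPM (-0.20, adjusted p = 0.0662, edgeR).

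Among the NHL-repeat members 2 of 3 fell at 8 h, a count too small to set against the 37% of all genes called lower. Trim2, first described in neurons, stood at 3.17 to 5.97 CPM (median 5.07) in WT-labelled controls, 2.02 to 3.91 (median 2.52) at 2 h and 0.295 to 1.75 (median 0.97) at 8 h. The 8 h libraries did not overlap the controls (log2 fold change -2.32, SE 0.30, adjusted p = 2.72e-08, edgeR). At 2 h they did, and the 2 h fall (-0.83, adjusted p = 0.0121, edgeR) was no longer called in set A alone (adjusted p = 0.0843, edgeR) or without the 4 libraries with muscle markers over 100 CPM (-0.71, adjusted p = 0.0756, edgeR). Trim32 fell by 0.61 at 8 h on the log2 scale (adjusted p = 3.5e-05, edgeR), and Trim3 was not called at either time.

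Trim36, a microtubule-associated ligase of the COS-box branch on chromosome 18, rose as fast as Trim13. It stood at 5.41 to 7.22 CPM (median 7.1) in WT-labelled controls, 46.9 to 69.1 (median 60.1) at 2 h and 32 to 68.9 (median 61.6) at 8 h. Both LPS groups lay above all controls and overlapped each other, with log2 rises of 3.16 at 2 h (SE 0.19, adjusted p = 6.88e-16, edgeR) and 3.10 at 8 h (SE 0.19, adjusted p = 2.84e-16, edgeR). The rises in NOS1 KO-labelled cells were 3.20 and 3.05. Of the other COS-box members only Trim46 was tested. It was not called in WT-labelled cells at either time. It fell at 2 h in NOS1 KO-labelled cells, from 1 to 1.52 CPM (median 1.19) to 0.392 to 1.17 (median 0.656), with overlapping groups (log2 fold change -0.88, SE 0.29, adjusted p = 0.018, edgeR), and rose from 2 h to 8 h (0.80, adjusted p = 0.0214, edgeR). Without 2 h library 4 neither was called (-0.76 and 0.68, adjusted p = 0.0547 and 0.059, edgeR), and the rise was not called without 8 h library 1 or 2 (0.72 and 0.62, adjusted p = 0.0521 and 0.0861, edgeR).

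Of the 6 tested members outside these branches, 4 fell and 1 rose at 8 h, where 37% of all genes were called lower and 34.2% higher. Trim47 had the largest fall in the family. It stood at 34 to 48 CPM (median 37.4) in WT-labelled controls, 20.5 to 26.8 (median 25.1) at 2 h and 2.1 to 2.75 (median 2.64) at 8 h, 3 groups without overlap. The log2 fold change was -0.70 at 2 h (SE 0.14, adjusted p = 0.000141, edgeR) and -3.95 at 8 h (SE 0.17, adjusted p = 2.76e-20, edgeR), and -3.68 at 8 h in NOS1 KO-labelled cells. Trim47 and Trim65 lie side by side on the same strand of chromosome 11 and share 225 exon bases, yet Trim65 was lowest at 2 h and Trim47 at 8 h. Trim37, which acts in peroxisome import and at centrosomes, was at 23.1 to 43.6 CPM (median 35) in controls and 23.2 to 38.4 (median 30.7) at 2 h, and fell to 3.95 to 8.91 (median 7.6) at 8 h (log2 fold change -2.24, SE 0.20, adjusted p = 7.55e-12, edgeR). Trim16, which marks damaged lysosomes with galectin-3, went from 12.4 to 17.5 CPM (median 14.1) to 5.85 to 10.9 (median 6.86) at 2 h and 1.71 to 4.6 (median 2.78) at 8 h (log2 fold change -0.95 and -2.27, SE 0.17 and 0.19, adjusted p = 2.78e-05 and 8.21e-13, edgeR). The member that rose, Trim43c, gave no more than 1.28 CPM in any WT-labelled library.

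LPS also changed which members were the most abundant per length of exon. In WT-labelled controls Trim35 led at 45.4 ± 5.39 CPM per kilobase (SD, n = 6), before Trim25 at 33.2 ± 5.93, Trim28 at 29.1 ± 2.58 and Trim8 at 25.6 ± 3.43. Trim25, Trim28 and Trim8 all overlapped each other within 1 SD of each. At 8 h Trim30a led at 215 ± 33 CPM per kilobase (SD, n = 6), before Trim25 at 129 ± 11.6, Trim30c at 111 ± 28.9, Trim21 at 86.9 ± 21.7 and Trim30d at 80.4 ± 18.6. Trim25 overlapped Trim30c, and Trim30c, Trim21 and Trim30d all overlapped each other, in the same way. Over the 36 libraries, Trim30a was most like Sp100 (Pearson r = 0.998), Trim30d (0.996) and Ddx60 (0.994) in log2 CPM, and Trim21 most like Rnf31 (0.996), Sp110 (0.994) and Igtp (0.992), again as descriptions across libraries that share treatment groups.

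Most of the family's partners also rose. Of 29 tested genes of RIG-I, cGAS and interferon signalling, 24 rose and 2 fell at 8 h in WT-labelled cells, beside 34.2% and 37% of all genes, and the median log2 fold change was 1.72 beside -0.06 over all genes. Ddx58, which encodes RIG-I, and Ifih1, which encodes MDA5, rose by 5.07 and 6.09 on the log2 scale, and the kinase gene Tbk1 by 1.76 (adjusted p = 2.78e-15, 9.63e-17 and 2.74e-21, edgeR). The adaptor gene Mavs fell by 0.32 on the log2 scale and the TAK1 gene Map3k7 by 0.35 (adjusted p = 0.000701 and 7.56e-06, edgeR). All 14 interferon response genes used for reference rose at 8 h. Of 4 family members that carry other names, 3 were tested and rose at 8 h: Mefv, which encodes pyrin, by 6.56, Pml, the organiser of nuclear bodies, by 3.24, and Mid1, a microtubule-associated ligase, by 2.60 on the log2 scale.

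Between genotypes, no TRIM member passed the test at any time when all 12 libraries of a time were compared. In controls edgeR called 0 of 41 members (11 at unadjusted p below 0.05, 3 with DESeq2), where it called 0.123% of all genes. At 2 h it called 0 (6 at unadjusted p below 0.05, 0 with DESeq2), where 0.0232% of all genes were called, and at 8 h 0 (5 at unadjusted p below 0.05, 0 with DESeq2), where 0.1% of all genes were called. The difference between genotypes in the LPS response was called for 0 members at 2 h (1 at unadjusted p below 0.05, 0 with DESeq2) and 0 at 8 h (5 and 0), where 0% of all genes were called at both times. In controls all 11 members at unadjusted p below 0.05 were higher in NOS1 KO-labelled libraries, and single libraries moved this count: edgeR called 3 without WT-labelled control 1, 4 without NOS1 KO-labelled control 2 and 2 without NOS1 KO-labelled control 6. The largest difference was that of Trim30c, at 0.36 to 0.764 CPM (median 0.518) in WT-labelled and 0.493 to 3.37 (median 2.28) in NOS1 KO-labelled controls (log2 difference 2.08, SE 0.51, adjusted p = 0.0971, edgeR). Trim65 at 8 h came closest to the threshold of all members: 5.56 to 8.3 CPM (median 7.08) in WT-labelled and 4.92 to 5.53 (median 5.27) in NOS1 KO-labelled libraries did not overlap (log2 difference -0.44, SE 0.10, adjusted p = 0.0604, edgeR). It was called without WT-labelled 8 h library 2 (-0.46, adjusted p = 0.0347, edgeR), without library 4 (-0.50, adjusted p = 0.0401, edgeR), and with the library set as a term (-0.44, adjusted p = 0.0275, edgeR).

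Within the library sets the picture differed. The sets were found from these same counts, so the values that follow describe how libraries of unlabelled origin differ, with 3 libraries per genotype, set and time. Control libraries of set B lay closer to each other than those of set A. Between libraries of the same control group, chi-square per gene was 2.666 to 7.837 within set B and 8.129 to 32.56 within set A. The calls by set came from a fit in which both sets share 1 estimate of the spread per gene. In control libraries of set A, 0 of 41 members were called between genotypes (0.0772% of all genes called; 1 member at unadjusted p below 0.05 when set A was fitted alone). In control libraries of set B, 11 members were called, all higher in NOS1 KO-labelled libraries, where 2.89% of all genes were called and 2.43% called higher. The difference between the sets was itself called for 7 members, where it was called for 1.94% of all genes: Trim30a, Trim30d, Trim12a, Trim12c, Trim34a, Trim14 and Trim21.

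Trim30d shows the pattern. In set A it stood at 11, 13.6 and 18.1 CPM in WT-labelled and 15.8, 15.9 and 16.7 in NOS1 KO-labelled controls, which overlap. In set B it stood at 9.85, 9.97 and 10.4 CPM in WT-labelled and 33.9, 37.3 and 46 in NOS1 KO-labelled controls, which do not. The log2 difference was 0.19 in set A and 1.96 in set B (difference 1.77, SE 0.22, adjusted p = 8.92e-07, edgeR). Trim30a ran the same way, at 51.6, 52.1 and 78.2 CPM against 61, 62.6 and 67.8 in set A, and 41.8, 43.3 and 43.6 against 141, 143 and 150 in set B (difference 1.68, SE 0.22, adjusted p = 5.1e-06, edgeR). The 14 interferon response genes moved with these members: in set A controls their summed level was 191 CPM or more (median 214) in WT-labelled libraries and 212 to 267 (median 242) in NOS1 KO-labelled ones, and the highest of these 6 libraries was WT-labelled. In set B it was 154 to 163 and 1020 to 1290. Every NOS1 KO-labelled control of set B lay above every other control. Neutrophil markers summed to 24.5 to 43.5 CPM and 54.1 to 60.4 in set A, and to 158 to 177 and 89.8 to 103 in set B. The part of either in the TRIM values was not tested.

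**Figure D4:**
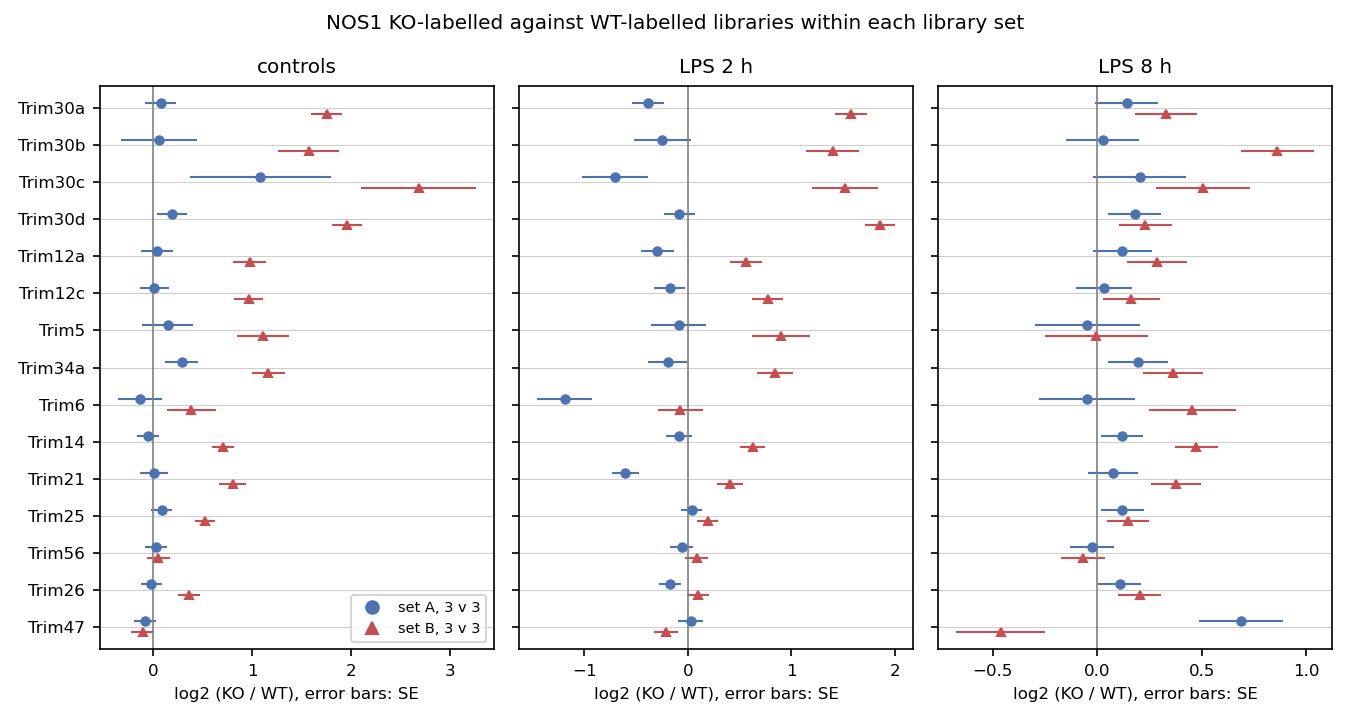
Log2 difference of NOS1 KO-labelled from WT-labelled libraries for 15 TRIM genes in controls, at LPS 2 h and at LPS 8 h (panels with their own axes); circles are set A, triangles set B, 3 against 3 libraries each, with standard errors. In controls the triangles of Trim30a and Trim30d lie at 1.75 and 1.96 and their circles at 0.08 and 0.19; at 8 h these triangles lie nearer to 0, at 0.33 and 0.23.

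After 2 h of LPS the set B libraries again held 8 members called, all higher in NOS1 KO-labelled libraries (2.95% of all genes called, 2.3% higher), whereas in set A Trim6 and Trim21 were called lower (0.201% of all genes called, 0.0849% lower). The sets differed for 9 members (2.16% of all genes called), most for Trim30c, at -0.70 in set A and 1.52 in set B. After 8 h, 0 members were called in set A (0.116% of all genes called; 2 at unadjusted p below 0.05 when set A was fitted alone) and 9 in set B (16.9% of all genes called), 4 higher (10.3% of all genes) and 5 lower (6.6%). The sets then differed for 2 members (5.68% of all genes called). Trim30b was at 0.86 in set B and 0.84 above set A (adjusted p = 0.041, edgeR), and Trim47 was 1.15 lower in set B than in set A on the log2 scale (adjusted p = 0.0163, edgeR). Trim30a and Trim30d, so far apart in set B controls, were at 0.33 and 0.23 in set B at 8 h and not called. Their 8 h response therefore differed between genotypes in set B, by -1.42 for Trim30a and -1.73 for Trim30d (adjusted p = 4.56e-05 and 4.32e-07, edgeR), and the values in set A were 0.06 and -0.01. In set B 6 members were called in this comparison, all lower, where 5.09% of all genes were called and 2.27% called lower. In set A 0% of all genes were called. The sets differed in it for Trim30a and Trim30d, where they did for 1.68% of all genes.

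At 8 h in WT-labelled cells, 8 of the cluster's 9 tested members were called higher in set A, all but Trim6 (34.8% of all genes called higher), and 9 of 9 in set B (34% of all genes called higher). The log2 rise of Trim30a in WT-labelled cells was 4.05 in set A and 4.16 in set B (difference 0.11, adjusted p = 0.798, edgeR). In NOS1 KO-labelled cells it was 4.12 and 2.74 (difference -1.38, adjusted p = 1.73e-05, edgeR), and there the set B controls started higher. Against control, the sets differed in WT-labelled cells for 3 of 41 members at 2 h (6.27% of all genes) and 7 at 8 h (17.2%). In NOS1 KO-labelled cells they differed for 1 member at 2 h (4.08% of all genes) and 16 at 8 h (22.8%). For 8 h against 2 h they differed for 7 members in WT-labelled cells (15.9%) and 13 in NOS1 KO-labelled cells (20.5%).

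The striated muscle members, Trim54, Trim55 and Trim63, which encode the MuRF ligases of the sarcomere, and Trim72, which encodes the membrane repair protein MG53, did not pass the filter, and their reads lay mostly in the 4 libraries with muscle markers. Trim63 gave 66 reads in all 36 libraries, 57 of them in those 4 (86.4%) and 40 in WT-labelled 8 h library 5 alone. Trim54 gave 33 of 36 reads in the 4 libraries (91.7%), Trim55 34 of 41 (82.9%) and Trim72 46 of 74 (62.2%). In the other 32 libraries no library held more than 7 reads of any of them. Trim7, a ligase that binds glycogenin, fell at 8 h in WT-labelled cells (log2 fold change -1.53, adjusted p = 0.00494, edgeR), from 0.594 to 2.92 CPM (median 1.62) to 0.175 to 1.92 (median 0.385), and its highest 8 h library was that same library 5. Without that library the log2 fold change was -2.38 (adjusted p = 6.72e-05, edgeR). In set B alone it was -0.05 and not called (adjusted p = 0.929, edgeR).

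**Figure D5:**
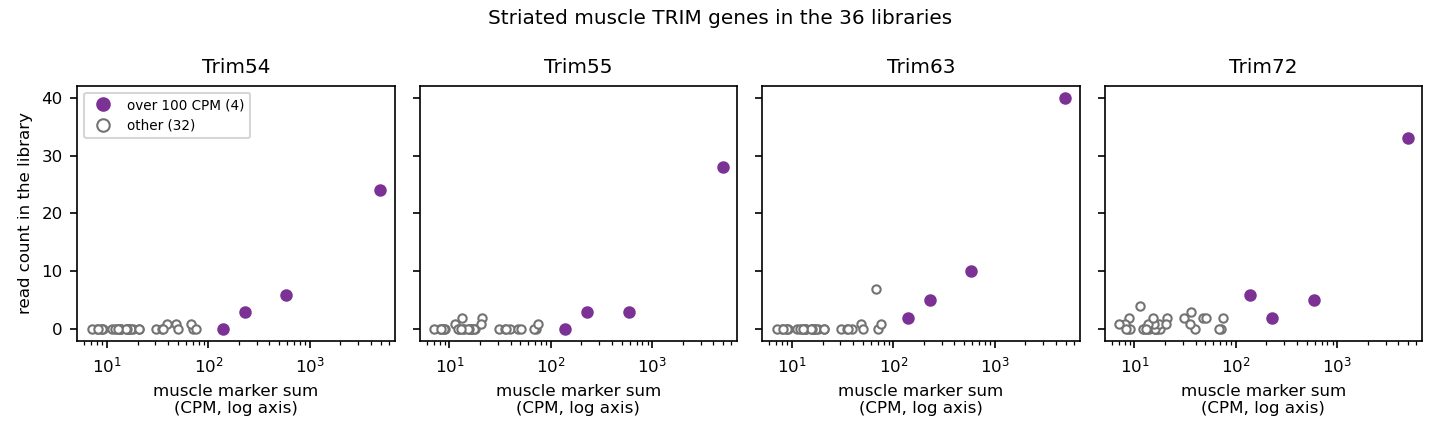
Read counts of the striated muscle genes Trim54, Trim55, Trim63 and Trim72 in each of the 36 libraries against the summed CPM of skeletal muscle markers (log axis); filled points are the 4 libraries over 100 CPM. WT-labelled 8 h library 5, at 4930 CPM, held 24, 28, 40 and 33 reads.

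The erythroid members Trim10 and Trim58, which act in red cell maturation, gave 4 and 12 reads in all 36 libraries. The summed erythroid markers were low too, at most 8.23 CPM, in WT-labelled 8 h library 5, the library with most muscle marker reads. Every other library held at most 1.84 CPM. Trim58 gave 0 reads in the 12 NOS1 KO-labelled control and 2 h libraries; a count of 0 over 6 libraries allows up to 3 reads, 0.0338 CPM in the NOS1 KO-labelled controls, for counting error only. Of the 27 members not tested, 5 gave 0 reads in every library (Trim31, Trim42, Trim52, Trim60 and Trim61), 6 gave 1 to 10 reads and 16 gave more, at most 209 for Trim69. A level below the filter was not detectable at this depth and is not shown to be absent.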

How the data were processed

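The authors deposited raw read counts per Ensembl gene for each library, made with HTSeq on mm10 per the submitters' processing notes. Not given in the sources used here were the HTSeq version, the aligner, the annotation and the strand setting. GENCODE M21 gave symbols to 54165 of the 54232 identifiers. Genes were filtered with filterByExpr (12957 kept), scaled by TMM and tested with edgeR 4.0.16's quasi-likelihood test, robust, with 1 mean per group over all 36 libraries and Benjamini-Hochberg adjustment over all genes tested, in R 4.3.3. The scripts were tested on simulated data. Alternatives were DESeq2 1.42.0, other scalings and filters, the compared groups alone, the library set as a term or each set alone, and libraries left out. The fit by library set was added after the data were seen. The members, role lists and tests were chosen with earlier results of these data known.

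Members given in full were those called between genotypes or in an interaction, the 8 largest rises and 5 largest falls at 8 h and the 4 and 3 at 2 h in WT-labelled cells among members with mean log2 CPM of 0 or more, those called in opposite directions at 2 h and 8 h, and the member with the smallest p in each role list. Other members named were chosen after their values were seen. Motifs were searched in RefSeq windows, and transcripts were aligned to each other with blastn. Depth sets a floor: 3 reads over a group correspond to 0.0338 to 0.0538 CPM.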

Additional observations from a re-analysis of the deposited data

Results flagged for a closer look

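In 11 of 246 sets of 6 libraries checked, 1 library stood far from the other 5, where chance gives about 1 in 20. Library 1 did so in WT-labelled cells for Trim30a (78.2 CPM) and Trim35 (163 CPM) in controls and for Trim5 (10.2 CPM), Trim16 (10.9 CPM) and Trim35 (135 CPM) at 2 h. Library 2 did so in NOS1 KO-labelled cells for Trim5 (5.01 CPM), Trim12a (12.6 CPM) and Trim32 (9.77 CPM) in controls and for Trim36 (31.2 CPM) at 8 h. The others were Trim5 in NOS1 KO-labelled 2 h library 6 (7.39 CPM) and Trim7 in WT-labelled 8 h library 5 (1.92 CPM), the library with most muscle marker reads. Xist stood at 370, 464 and 534 CPM in the 3 WT-labelled libraries numbered 1 and at no more than 0.0983 CPM in any other library of either genotype label. The part of this difference in the TRIM values was not tested.

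The difference between genotype labels was itself different between library sets in 20 tests, given as set B minus set A on the log2 scale. In controls it was 0.935 for Trim12a, 0.954 for Trim12c, 0.758 for Trim14, 0.795 for Trim21, 1.68 for Trim30a, 1.77 for Trim30d and 0.873 for Trim34a. At 2 h it was 0.857 for Trim12a, 0.946 for Trim12c, 0.711 for Trim14, 1.01 for Trim21, 1.96 for Trim30a, 1.65 for Trim30b, 2.23 for Trim30c, 1.94 for Trim30d and 1.04 for Trim34a. At 8 h it was 0.835 for Trim30b and -1.15 for Trim47, and for the 8 h response it was -1.49 for Trim30a and -1.71 for Trim30d. The part of interferon response genes and of neutrophil and stromal markers, which also differ between the sets, was not tested.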

How the results depend on the processing

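The members called after LPS kept their number within 1.5 times under every alternative except scaling by library totals, where those lower at 8 h against 2 h went from 9 to 15 in WT-labelled and from 10 to 17 in NOS1 KO-labelled cells. Leaving out 1 library at a time gave 0 to 4 members called between genotypes in controls, 0 at 2 h, 0 to 1 at 8 h and 0 in both interactions. DESeq2 called 3 in controls (0.664% of all genes). At 8 h library totals called 1 (0.316% of all genes) and the set as a term 1 (1.08%). Set B fitted alone called 12 in controls (10.8% of all genes), 15 at 2 h (10.8%), 20 at 8 h (31.4%), and 4 and 16 in the 2 h and 8 h interactions (1.13% and 16.7%). Libraries of set B were mostly closer to each other than those of set A. A p-value from set B alone measures that smaller spread, which may be technical. The causes were not tested. Scaling by library totals turned the sign at 8 h in WT-labelled cells of Trim11 (-0.54), Trim23 (-0.506), Trim35 (-0.478), Trim41 (-0.488) and Trim46 (-0.756), and from 2 h to 8 h of Trim8 (-0.289), Trim23 (-0.0933), Trim39 (-0.175) and Trim62 (-0.0546). In NOS1 KO-labelled cells it turned Trim5 (-0.154), Trim11 (-0.732), Trim23 (-0.592), Trim35 (-0.511), Trim39 (-0.821) and Trim41 (-0.539) at 8 h, and Trim8 (-0.413), Trim23 (-0.08) and Trim65 (-0.423) from 2 h to 8 h. Set B alone turned Trim6 (0.666) and Trim35 (-0.142) at 2 h in NOS1 KO-labelled cells and Trim21 between genotypes at 2 h (0.414). No paired analysis was run because the labels give no replicate numbers or pairing. Libraries of the same number, given in accession order, fell in the same set in every group. Xist was high only in the WT-labelled libraries numbered 1. Whether libraries of the same number share an origin was not tested. Low counts limit Trim30c in controls, Trim7, Trim43c and all members not tested.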
